A study of Canis lupus familiaris with 6 samples.

Results

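The splicing factor and hnRNP genes are described here in 3 canine mammary tumor cell lines grown alone or with myeloid-derived suppressor cells (MDSCs). Members were chosen by symbol alone, as the genes whose array name starts with SNRP, LSM, SF3A, SF3B, SF1, U2AF, PRPF, SFRS or SRSF, HNRNP or HNRP, PTBP, KHDRBS or RBM and goes on as those families are numbered. This gave 105 genes on 215 probes, out of 13684 gene symbols on 43603 probes. Of the members, 104 genes on 214 probes passed the intensity filter and were tested. The probe for KHDRBS2 did not pass. A signal well above background, as flagged by the scanner software, was seen in all 12 channels for 193 of the 215 probes, and 2 probes had none in any channel.

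P114 is an anaplastic cancer line, CMT-U27 a simple carcinoma line and CMT-U309 a spindle cell tumor line, all kept in RPMI-1640 with serum. In co-culture, MDSCs from blood of healthy dogs, isolated by cell sorting, sat in a transwell insert above the tumor cells, so the cell types shared medium. The monoculture was the same line grown without MDSCs. Co-culture lasted 48 h by the methods and at least 72 h by the sample descriptions. RNA of both cultures of a line was hybridized to 2 Agilent canine arrays, with co-culture RNA in Cy5 on replicate 1 and in Cy3 on replicate 2. A line thus gave 1 co-culture and 1 monoculture RNA, each measured in 2 dyes, and the 6 arrays hold 6 RNA samples. Each line lay on a slide of its own, so that line and slide cannot be told apart.

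Messenger RNA is spliced by the spliceosome, which is built from small nuclear ribonucleoprotein particles (snRNPs). The Sm proteins, among those with symbols SNRP, form the ring around most of the small nuclear RNAs. Some of the LSM proteins form the ring of U6, and others do not. SF1 and the U2AF proteins recognize the branch site and the 3′ splice site, where the SF3A and SF3B complexes of the U2 snRNP then bind, and the PRPF proteins act in the tri-snRNP and in the catalytic steps. SR proteins and hnRNPs bind exons and introns and favour or repress the use of nearby splice sites, as do PTBP, KHDRBS and many RBM proteins. Several of these regulators are tissue-specific, and carcinoma cells and mesenchymal cells are known to differ in them.

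The measurement rests on probes of 60 bases, and 5 of them are printed because the results turn on their genes. They are given 5′ to 3′ as the files list them, without capitals since no part is singled out. SF3B4, a subunit of the SF3B complex, had the largest co-culture ratio and is covered by a pair of probes on chr17:62292272-62292331 and chr17:62289234-62291565, minus strand. SNRPA, a protein of the U1 snRNP, lies at chr1:115931792-115931851, minus strand. PRPF3, a protein of the U4/U6 snRNP, lies at chr17:62638525-62642990 and the cold-inducible RNA-binding protein RBM3 at chrX:41758617-41759109, both on the plus strand, and both genes differed over 2-fold between lines. All positions are canFam2 as given by the files. Some of these spans are longer than the 60 bases of the probe. Whether such probes bridge exons was not checked, since exon and UTR annotation was not used here.
SF3B4 first probe: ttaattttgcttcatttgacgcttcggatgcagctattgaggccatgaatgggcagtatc
SF3B4 second probe: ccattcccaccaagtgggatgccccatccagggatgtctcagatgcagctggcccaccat
SNRPA probe: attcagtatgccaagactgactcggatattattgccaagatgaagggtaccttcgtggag
PRPF3 probe: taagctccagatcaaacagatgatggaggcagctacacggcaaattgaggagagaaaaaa
RBM3 probe: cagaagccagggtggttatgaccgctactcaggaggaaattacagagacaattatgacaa
The share of G and C was 43.3% in the first SF3B4 probe, 60.0% in the second, 45.0% in those of SNRPA and RBM3, and 43.3% in that of PRPF3, against a median of 41.7% over the members.

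The lines were checked first. The summed signal of 6 epithelial markers with a probe was 126100 in CMT-U27 co-culture and 110810 in its monoculture, against 4923 to 7136 in the other lines. For 10 mesenchymal markers it was 9133 and 9801 in CMT-U27 and 317040 to 520280 in P114 and CMT-U309. Among the epithelial markers KRT14 ran the other way, at log2 levels of 11.05 in CMT-U27, 11.86 in P114 and 12.58 in CMT-U309. The other epithelial markers were highest in CMT-U27. Among the mesenchymal markers THY1 differed little, at 9.88 in CMT-U27, 9.35 in P114 and 10.00 in CMT-U309. The other mesenchymal markers were lowest in CMT-U27. Of 15 myeloid markers, 2 were well above background in every channel, and ITGAM, LYZ and SPI1 in 0. PTPRC, which marks all leukocytes, was well above background in 3 of 12 channels. The summed myeloid signal was 19633 in CMT-U27 co-culture and 12786 in its monoculture, and 1689 to 1746 in the other samples. In CMT-U27 the highest log2 levels of that list were 13.06 for S100A8 and 12.39 for LCP1, against 2.03 for PTPRC and 2.68 for ITGAM. Over the 3 lines, 9 of the 15 myeloid markers had a mean co-culture ratio above 0. The part of the myeloid signal in the co-culture ratios was not tested. Across channels, 53.0% to 81.0% of spots were well above background, and 93.0% to 98.6% of member probes. Fewer cells of a type and less RNA per cell cannot be told apart in these samples.

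Between the lines, levels of the members differed far more than between cultures. Log2 levels of the 6 RNA samples were fitted with limma for line and culture, and a probe was called at a Benjamini-Hochberg adjusted p under 0.05 over all 40873 tested probes and a difference over 2-fold. The lines stand for 2 RNA samples each, from different cultures. Since culture is in the fit, the spread in this test is how far the difference between cultures varies among the lines. In CMT-U27 against P114, 28 of 214 member probes were higher (13.1%, with 12.6% of all probes) and 5 were lower (2.34%, with 11.6% of all). In CMT-U309 against P114, 5 were higher (2.34%, with 6.85% of all) and 10 lower (4.67%, with 7.69% of all). In CMT-U309 against CMT-U27, 5 were higher (2.34%, with 13.3% of all) and 66 were lower (30.8%, with 15.7% of all). Without scaling the called members split otherwise, with 96.3% of them higher in CMT-U309 than in P114, against 33.3% as given here. All called probes moved likewise, from 47.1% to 92.9% higher. Without P114 replicate 1 the 10 lower probes of that contrast became 18, and without P114 replicate 2 or CMT-U27 replicate 1 the 5 probes higher in CMT-U309 than in CMT-U27 became 3.

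The spindle cell line thus had lower signal than the carcinoma line at 66 of 214 member probes. The median log2 difference of CMT-U309 minus CMT-U27 was -0.75 over member probes and -0.04 over all tested probes. For genes whose brightest probe was well above background in every channel, it was -0.76 over 97 members and -0.24 over all 7907. Among probes well above background in every channel, the share called lower was 30.1% of members and 18.9% of all. The size of this excess depended on the scaling of channels. With quantile normalization 14.0% of member probes and 13.9% of all were lower, and without scaling 10.7% and 10.6%, so that these shares did not exceed the background. The medians kept a gap, at -0.47 against -0.03 with quantile normalization and at -0.45 against 0.27 without scaling. With background correction by normexp, loess and Aquantile the lower share was 7.01% of members and 5.05% of all.

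The median was below 0 in each symbol group that holds genes of the core machinery. With each gene represented by its brightest probe, the median log2 difference of CMT-U309 minus CMT-U27 was -0.71 for 9 Sm and other SNRP genes, with 1 called lower, and -0.76 for 8 LSM genes, with 3 lower. It was -1.01 for 11 genes of SF3A, SF3B, SF1 and U2AF, with 6 lower, and -0.75 for 13 PRPF genes, with 5 lower. Among the regulators it was -0.99 for 8 SR protein genes, with 4 lower, -0.77 for 18 hnRNP genes, with 5 lower, and -0.80 for 33 RBM genes, with 11 lower. Only RBM20 and KHDRBS3 were called higher among the 104 brightest probes, and 35 genes were called lower. Over all 13192 gene symbols, 2364 were called lower and 1841 higher, with a median of -0.08. For the 7907 symbols whose brightest probe was well above background in every channel, the median was -0.24. The 1 of 9 SNRP genes is a smaller share than in all genes.

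**Figure D1:**
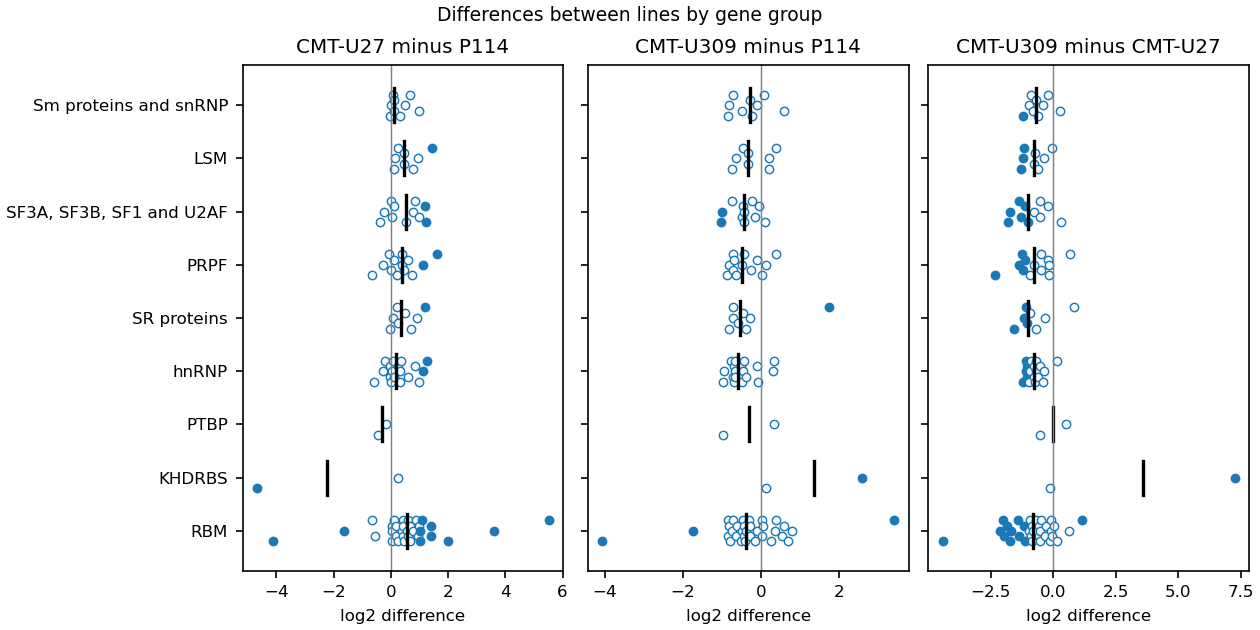
Log2 difference in level between lines (x axis) for the brightest probe of each of 104 genes, by gene group; filled points have an adjusted p under 0.05 and differ over 2-fold, and black bars are group medians. In CMT-U309 minus CMT-U27 the group medians lie between -1.01 and -0.71 except for PTBP and KHDRBS, which hold 2 genes each.

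Splicing genes outside the symbol rule were counted the same way. Of 127 listed, 104 had a tested probe, and 27 were lower and 4 higher in CMT-U309 than in CMT-U27, with a median log2 difference of -0.60, against the 2364 lower and 1841 higher of 13192 symbols. SNRNP200, the helicase that unwinds U4/U6, stood at a log2 level of 12.99 in CMT-U309, 13.93 in P114 and 14.98 in CMT-U27. USP39, a protein of the tri-snRNP, stood at 10.91, 11.43 and 13.28 in that order. The epithelial splicing regulator ESRP1 had a log2 level of 10.25 in CMT-U27 against 6.69 in CMT-U309, while no channel of P114 was well above background. Against the lowest signal well above background there, ESRP1 was at least 53-fold higher in CMT-U27 and at least 5.07-fold higher in CMT-U309 (adjusted p = 7.4e-09 and 3.7e-06 in limma). NOVA1, a splicing regulator best known from neurons, had log2 levels of 9.14 in CMT-U309 and 7.18 in P114, with no channel of CMT-U27 well above background. By the same bound NOVA1 was at least 38.3-fold higher in CMT-U309 and at least 9.22-fold higher in P114 than in CMT-U27. These 4 genes were picked for naming after their values were seen.

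The strongest contrasts came from a few regulators that neared the background in at least 1 line. KHDRBS3, a KH-domain RNA-binding protein also called SLM2 or T-STAR, is probed at chr13:34611640-34611699. Its scaled log2 level in CMT-U309 was 11.29 and 11.40 in co-culture and 11.62 and 11.49 in monoculture. In P114 it was 8.74 and 8.98 in co-culture and 8.53 and 9.19 in monoculture, and in CMT-U27 4.65 and 2.36 in co-culture and 4.74 and 4.99 in monoculture. The lines did not overlap, and CMT-U27 lay near the background. The log2 difference of CMT-U309 minus CMT-U27 was 7.26 (SE 0.28, adjusted p = 2.6e-08 in limma), that of CMT-U309 minus P114 was 2.59 (adjusted p = 9.5e-05), and that of CMT-U27 minus P114 was -4.67 (adjusted p = 7e-07). The other KHDRBS3 probe, on chr13:34611711-34611770, was not well above background in any CMT-U27 channel. By that probe KHDRBS3 was at least 172-fold higher in CMT-U309 and at least 22.5-fold higher in P114 than in CMT-U27, computed against the lowest signal well above background.

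RBM11, an RNA-binding protein described as a tissue-restricted splicing regulator, was highest in CMT-U27. The probe on chr31:14224947-14225006 gave log2 levels of 8.60 and 8.85 in co-culture and 9.12 and 9.16 in monoculture of CMT-U27, and 6.48, 7.07, 6.95 and 6.78 in that order in CMT-U309. In P114 the values were 2.27, 4.88, 3.79 and 2.71, with 1 of 4 channels well above background. No channel of one line reached into another line. CMT-U27 exceeded P114 by 5.52 on the log2 scale (SE 0.23, adjusted p = 5.2e-08) and CMT-U309 exceeded P114 by 3.40 (adjusted p = 3.6e-06). CMT-U309 was below CMT-U27, with a difference of -2.12 (adjusted p = 4.3e-05). With normexp, loess and Aquantile, RBM11 exceeded its P114 level by 1.93 in CMT-U27 and by 0.80 in CMT-U309, the latter under 2-fold. By its other probe, without signal well above background in P114, RBM11 was at least 18.7-fold higher in CMT-U27 and at least 3.92-fold higher in CMT-U309 than in P114.

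RBM47, an RNA-binding protein that acts in splicing and RNA editing in epithelial tissues, was seen chiefly in CMT-U27. The log2 level on chr3:74959285-74959344 was 7.47 and 7.60 in co-culture and 7.85 and 7.82 in monoculture of that line. In CMT-U309 it lay between 3.15 and 3.35, and in P114 between 2.56 and 6.01, where replicate 1 gave the higher value in both cultures. One of 4 channels was well above background in P114 and 1 of 4 in CMT-U309. The log2 difference of CMT-U309 minus CMT-U27 was -4.41 (adjusted p = 1.1e-06 in limma), and CMT-U27 exceeded P114 by 3.60 (adjusted p = 5.7e-06). With normexp, loess and Aquantile that RBM47 gap was 0.87, under 2-fold. RBM46, known from the germ line, had a probe on chr15:55497927-55497986 with signal well above background in 3 of 4 channels of P114 and in 0 of the other lines. By that probe RBM46 was at least 4.12-fold higher in P114 than in CMT-U27 and at least 6.63-fold higher than in CMT-U309. Another RBM46 probe was well above background in 1 channel of CMT-U27, 3 of CMT-U309 and 0 of P114. The probes of RBM46 thus disagreed on the line with signal. The remaining RBM46 probe was well above background in 0 channels, and neither of these gave a bound over 1.

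**Figure D2:**
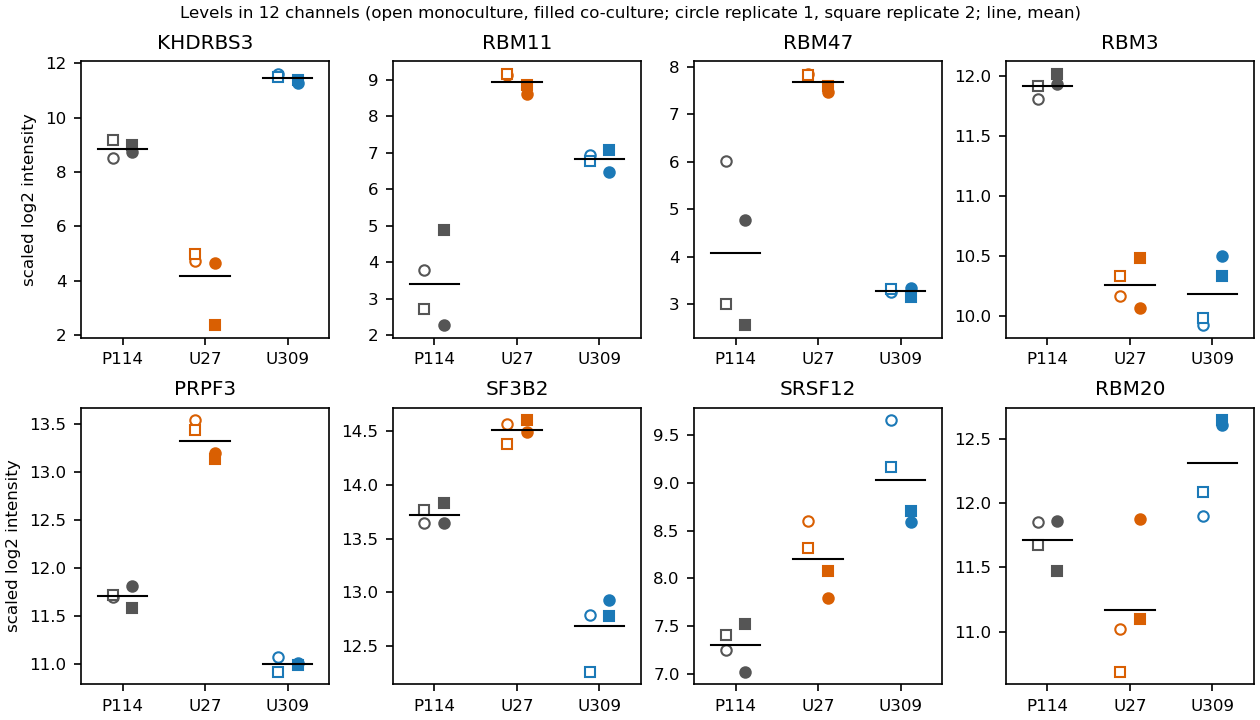
Scaled log2 intensity (y axis, own scale in each panel) of the brightest probe of 8 genes in the 12 channels, by line; open symbols are monoculture and filled ones co-culture, circles replicate 1 and squares replicate 2, and the bar is the line's mean. KHDRBS3 is lowest in CMT-U27, RBM11, RBM47, PRPF3 and SF3B2 are highest there, RBM3 is highest in P114, and SRSF12 and RBM20 have their highest mean in CMT-U309.

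Genes with signal in all lines differed less, and P114 or CMT-U27 still stood apart for some. RBM3 had log2 levels between 11.81 and 12.01 in the 4 channels of P114, between 10.06 and 10.48 in CMT-U27 and between 9.92 and 10.49 in CMT-U309. P114 stood above both, with log2 differences of -1.66 for CMT-U27 minus P114 (SE 0.15, adjusted p = 1.3e-05 in limma) and -1.73 for CMT-U309 minus P114 (adjusted p = 1.9e-05), while CMT-U27 and CMT-U309 did not differ beyond their spread (-0.08, SE 0.15). PRPF3 on chr17:62656490-62656549 lay between 13.13 and 13.54 in CMT-U27, between 11.59 and 11.81 in P114 and between 10.92 and 11.07 in CMT-U309. CMT-U309 was thus lower than CMT-U27 by a log2 difference of -2.33 (SE 0.14, adjusted p = 6.4e-07), and the PRPF3 probe printed above gave -2.56. SF3B2, which contacts the branch site region, ranged from 14.37 to 14.60 in CMT-U27, 13.64 to 13.83 in P114 and 12.27 to 12.93 in CMT-U309. Its log2 difference of CMT-U309 minus P114 was -1.03 (adjusted p = 0.00043), a call lost without scaling (-0.25), and by its 3 probes CMT-U309 minus CMT-U27 ranged from -1.81 to -1.66.

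SF1, the branch point binding protein, overlapped between CMT-U309 and CMT-U27 in single channels. Its levels were 8.60 to 9.77 in CMT-U309, 9.52 to 10.79 in CMT-U27 and 9.73 to 10.54 in P114, and the log2 difference of CMT-U309 minus P114 was -1.01 (SE 0.21, adjusted p = 0.0047 in limma), and -0.23 without scaling. The other SF1 probe gave a log2 difference of -0.00318 for CMT-U309 minus CMT-U27, against -1.01 for the brightest. SRSF12, an SR-related protein that can repress splicing, ran the other way, with its highest mean in CMT-U309. Its levels were 8.59 to 9.66 in CMT-U309, 7.80 to 8.60 in CMT-U27 and 7.02 to 7.52 in P114, and CMT-U309 exceeded P114 by 1.73 on the log2 scale (adjusted p = 0.00012). RBM20, the splicing regulator of titin in muscle, was at 11.90 to 12.65 in CMT-U309 and 10.69 to 11.88 in CMT-U27, and the log2 difference was 1.14 (adjusted p = 0.00064).

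Among the genes named whatever their values, U2AF1, the small subunit that reads the 3′ splice site, was higher in CMT-U27 than in P114 by 1.23 on the log2 scale (adjusted p = 0.00031 in limma) and lower in CMT-U309 than in CMT-U27 (-1.12, adjusted p = 0.00047). HNRNPA2B1, an abundant hnRNP, had a log2 level between 13.82 and 14.00 in CMT-U309, 14.54 and 14.85 in P114, and 14.81 and 15.28 in CMT-U27. CMT-U309 minus CMT-U27 was -1.09 (adjusted p = 0.00032). SRSF3, the smallest SR protein, differed by -1.09 in the same contrast (adjusted p = 0.00043). SF3B1, the core of the SF3B complex, had differences between -0.46 and -0.21, all under 2-fold. PRPF8, the centre of the catalytic core, stood 0.60 higher in CMT-U27 than in P114, and HNRNPK was lower there, with a log2 difference of -0.59 (adjusted p = 0.0076 in limma), again under 2-fold. For PTBP1 that difference was -0.46 (adjusted p = 0.081). In CMT-U309 minus P114 the brightest PTBP1 probe gave -0.97, under 2-fold, and a dimmer PTBP1 probe was called lower past 2-fold. No tested probe bore the symbols HNRNPA1, HNRNPC, U2AF2, SNRPN, RBM9, RBM35A or RBM35B.

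The question of the study was what co-culture with MDSCs changes in tumor cells. For the splicing genes the change common to the 3 lines was small. The median co-culture to monoculture log2 ratio was -0.02 over 104 genes and 0.00125 over all gene symbols, with 46 genes above 0 and 58 below. For a single gene the median SD between lines was 0.23 and the median SE 0.13 (n = 3 lines). By the criteria of the study's methods, which are an unadjusted p below 0.05 and a change over 2-fold, limma called 1 member probe higher (0.467%, with 1.03% of all probes), one of SF3B4, and 0 lower (with 0.191% of all). No member passed an adjusted p of 0.05, nor did any other probe, and the smallest adjusted p was 0.498 among members and 0.23 in all. At an unadjusted p under 0.05 alone, 19 member probes were higher (8.88%, with 5.81% of all probes) and 6 lower (2.80%, with 4.12% of all).

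SF3B4 had the largest mean ratio, but not in all lines. By its first printed probe the log2 ratio was 1.91 and 2.28 on the CMT-U27 arrays and 1.39 and 1.99 on those of CMT-U309, with the array of co-culture in Cy5 given first. In P114 it was -1.99 and 0.50. The ratio was therefore above 0 on 5 of 6 arrays, and the dye-swap of P114 gave opposite signs. The mean was 1.01 (SE 0.44, unadjusted p = 0.0435, adjusted p = 0.50 in limma). By the second probe the ratios were -1.43 and 0.43 in P114, 1.72 and 2.01 in CMT-U27 and 0.75 and 1.64 in CMT-U309, with a mean of 0.85 (SE 0.36). Both probes thus ran alike on every array. The call was lost without CMT-U27, at 0.47, and without CMT-U309, at 0.67, and the mean was 1.89 without P114. The level behind these ratios was modest, with log2 values from 4.32 to 8.55 by the first probe, and all 12 channels were well above background.

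KHDRBS1, the signalling-responsive splicing regulator Sam68, was higher in co-culture on every array. The log2 ratio of its brightest probe, on chr2:72015837-72015896, was 0.31 and 0.66 in P114, 1.27 and 0.80 in CMT-U27 and 1.32 and 0.27 in CMT-U309. The mean was 0.77 (SE 0.14, unadjusted p = 0.00029, adjusted p = 0.50 in limma), the lowest unadjusted p among the members. Its other probe, on chr2:72024257-72024316, gave a mean of 0.05 and values from -0.61 to 0.43, so the probes of KHDRBS1 disagreed. The same sign on all 6 arrays was seen for 6 member probes above 0 (2.80%, with 2.55% of all probes) and 6 below 0 (2.80%, with 1.72% of all).

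Other named ratios above 0 were those of SNRPA, SRSF2, HNRNPL and SRSF1. For SNRPA the log2 ratios were -0.54 and 0.01 in P114, 1.12 and 0.96 in CMT-U27 and 1.04 and 1.22 in CMT-U309, with a mean of 0.64 (SE 0.24). SRSF2, the SR protein SC35, had -0.29 and 0.53, then 0.98 and 0.19, then 1.30 and 0.29 in the same order, with a mean of 0.50 (SE 0.14). HNRNPL, which binds CA-rich RNA, had a mean of 0.46 (SE 0.17), with values from 0.60 to 0.89 on the arrays of CMT-U27 and CMT-U309 and -0.48 and 0.25 in P114. SRSF1, a founding SR protein, had a mean of 0.43 (SE 0.13) by its brightest probe, and -0.18 and -0.22 by its other probes. Of the 8 LSM genes, 4 had an unadjusted p under 0.05 and a ratio above 0, among them LSM4 (0.35, SE 0.11) and LSM7 (0.28, SE 0.12), both above 0 on 6 of 6 arrays. Of all 13192 gene symbols, 745 met that criterion. None of these genes passed the adjustment, for which all members had an adjusted p of at least 0.498.

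The ratios below 0 reached -0.56 in the mean. PRPF19, the ubiquitin ligase of the spliceosome, had log2 ratios of -1.13 and -2.23 in P114, -0.03 and -0.71 in CMT-U27 and 0.94 and -0.19 in CMT-U309, with a mean of -0.56 (SE 0.30). Its other probe gave -0.49 (SE 0.18) and was at or below 0 on all arrays, from -1.10 to -0.00335. SRSF12 had -0.22 and 0.11 in P114, -0.81 and -0.25 in CMT-U27 and -1.06 and -0.46 in CMT-U309, with a mean of -0.45 (SE 0.16). The kinase PRPF4B (-0.29, SE 0.12), HNRPDL (-0.25, SE 0.12) and HNRNPH3 (-0.25, SE 0.13) were below 0 on all 4 arrays of CMT-U27 and CMT-U309. PRPF4B is covered by 5 probes whose means ran from -0.38 to 0.22. KHDRBS3 had a mean of -0.52 (SE 0.23), which rested on the ratio of -2.62 on the CMT-U27 array with co-culture in Cy3, where the co-culture signal was near the background, and its other probe gave -0.00198.

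Of the remaining genes named whatever their values, U2AF1 had a mean log2 ratio of 0.24 (SE 0.14), PRPF8 of 0.23 (SE 0.15), RBM3 of 0.20 (SE 0.12) and PTBP1 of 0.08 (SE 0.15). SF3B1 stood at 0.0027, HNRNPK at -0.07, HNRNPA2B1 at -0.08 and SRSF3 at -0.19. The unadjusted p of these 8 genes was between 0.123 and 0.982. By group, the median log2 ratio ran from -0.09 for SNRP genes and -0.08 for SR protein genes to 0.11 for the genes of SF3A, SF3B, SF1 and U2AF and 0.21 for LSM genes. Of the 104 other splicing genes, 8 had an unadjusted p under 0.05 above 0 and 5 below 0, with a median of -0.01. Over all 13192 gene symbols these counts were 745 and 502. The largest was DDX39B, a helicase of early spliceosome assembly, at 1.13 (unadjusted p = 0.0118 in limma), whose ratios were -1.25 and 0.47 in P114, 1.85 and 1.93 in CMT-U27 and 2.15 and 1.66 in CMT-U309. It was named after its values were seen.

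**Figure D3:**
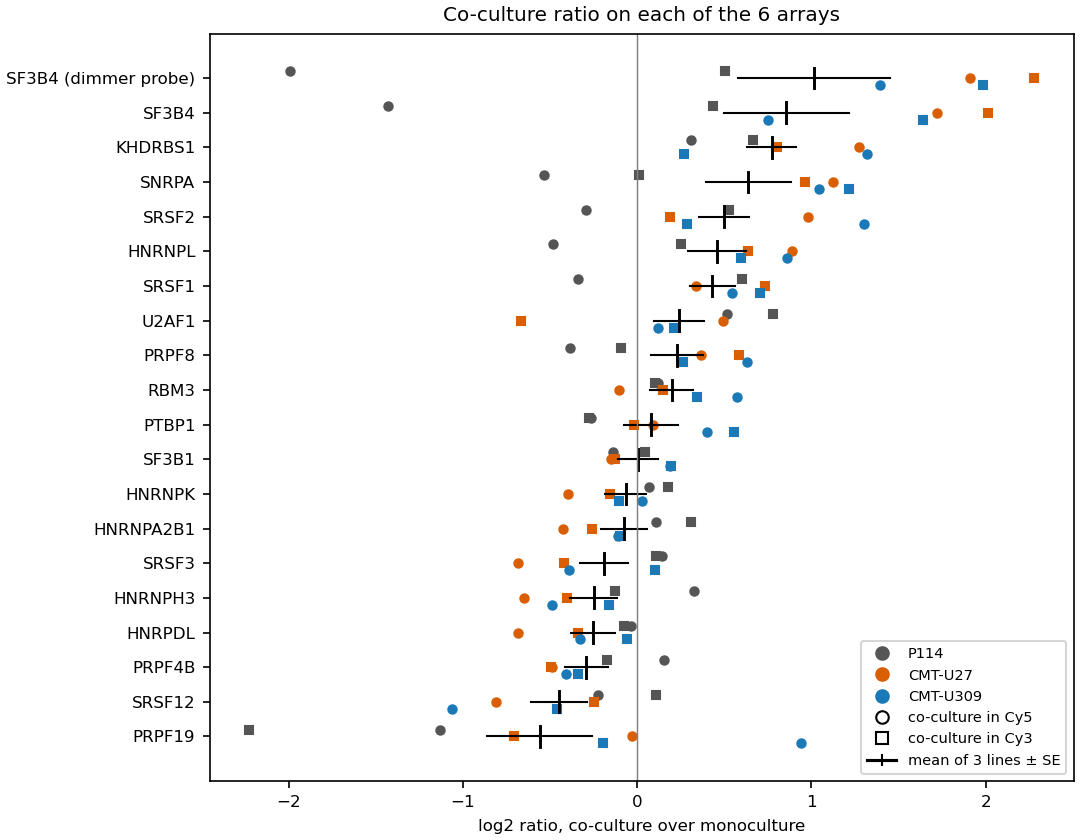
Log2 ratio of co-culture over monoculture (x axis) on each of the 6 arrays for 20 probes of named genes; colours mark lines, circles arrays with co-culture RNA in Cy5 and squares their dye-swaps, and the black cross is the mean of 3 lines with its SE. For SF3B4 the arrays of CMT-U27 and CMT-U309 lie between 0.75 and 2.28, while P114 lies at -1.99 to 0.50.

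The lines and the dyes were then compared across member probes, which are not independent of each other. With every ratio given as co-culture over monoculture, the Pearson correlation between the arrays of a line over 214 probes was -0.11 for P114, 0.57 for CMT-U27 and 0.25 for CMT-U309. Over all 40873 tested probes it was -0.39, 0.26 and -0.09 in that order, and the dyes were taken as labelled. Of 104 genes, 62 had opposite signs on the arrays of P114, 25 on those of CMT-U27 and 48 on those of CMT-U309. Averaged over the dyes, the ratios of CMT-U309 followed those of CMT-U27 with a correlation of 0.80. For P114 the correlation was -0.25 against CMT-U27 and -0.33 against CMT-U309. Over all tested probes the CMT-U27 and CMT-U309 means had a correlation of 0.58, and P114 gave -0.08 with either. The array of P114 with co-culture in Cy5 had negative correlations with each other array, from -0.51 to -0.11. Where lines share a slide layout, dye and probe, a correlation across probes includes what these share.

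**Figure D4:**
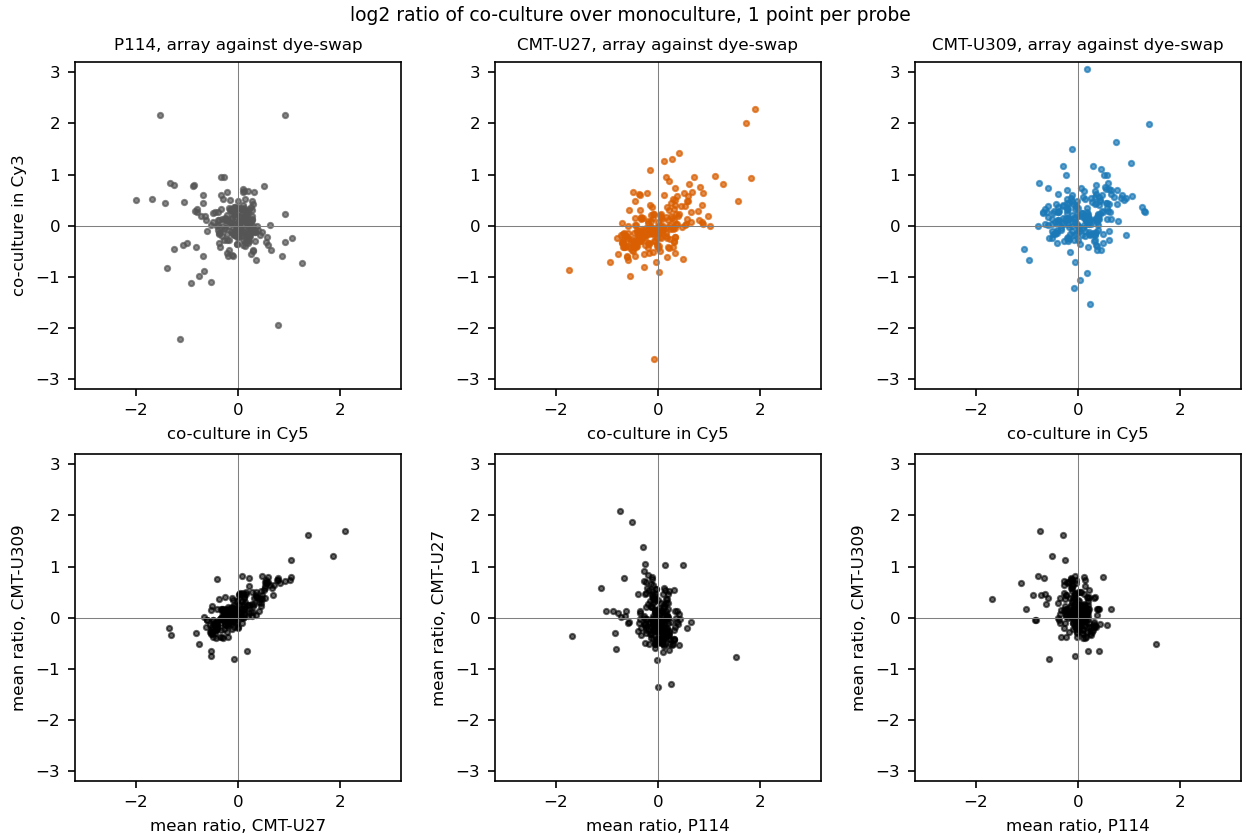
Log2 ratio of co-culture over monoculture, with 1 point for each of 214 member probes. Top, each line's array with co-culture in Cy5 (x) against its dye-swap (y), with correlations of -0.11, 0.57 and 0.25; bottom, mean ratios of line pairs, with correlations of 0.80, -0.25 and -0.33.

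Base composition moved with these ratios. Across member probes, the share of G and C correlated with the log2 ratio at -0.19 in P114, at 0.31 for CMT-U27 and at 0.22 for CMT-U309. These values were -0.13, 0.34 and 0.27 over the 20740 probes well above background in every channel. In both sets the sign differed between P114 and the other lines on every array, and it was the same on both arrays of each line. Over all 40873 tested probes, dim ones included, the values were -0.06, -0.0049 and -0.03. There the sign followed the dye, at 0.09, 0.07 and 0.13 on the arrays with co-culture in Cy5 and -0.15, -0.07 and -0.11 on their dye-swaps. The median share of G and C was 45.0% in the 19 member probes above 0 at an unadjusted p under 0.05 and 37.5% in the 6 below 0. The part of base composition in the ratios was not tested. For the difference between CMT-U309 and CMT-U27 in level the correlation with G and C was -0.04.

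Without P114, the mean of CMT-U27 and CMT-U309 gave more calls. In that limma fit 36 member probes were above 0 at an adjusted p under 0.05 (16.8%, with 8.98% of all probes) and 20 below 0 (9.35%, with 6.58% of all). Among probes well above background in every channel, the shares were 18.1% and 9.84% of members and 12.2% and 7.50% of all. Past 2-fold as well, 4 member probes were higher, both of SF3B4 and 1 each of SNRPA and RBM46 (1.87%, with 2.90% of all probes), and 0 were lower (with 1.34% of all). The RBM46 probe had no channel well above background. SF3B4 rose by 1.89 and 1.53 on the log2 scale at its probes (adjusted p = 0.00021 and 0.00079), and SNRPA rose by 1.09 (adjusted p = 0.00057). Others that rose past the adjusted threshold at their brightest probe were KHDRBS1 (0.92), SNRPB (0.75), a Sm protein, HNRNPL (0.75), SRSF2 (0.69) and RBM20 (0.64). By the same measure SRSF12 (-0.64), PRPF4B (-0.43) and HNRNPH3 (-0.43) fell. The other probe of RBM20 gave -0.82 (adjusted p = 0.094), the opposite sign, and that of KHDRBS1 gave 0.25 (adjusted p = 0.18). The other PRPF4B probes ran from -0.57 to 0.26. With 2 lines the SE leans on the spread that limma borrows from all probes, and the choice to leave out P114 is one of 3 such fits.

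The difference between P114 and the other lines was tested on the 6 arrays, with terms for line and dye, so that its spread is technical. The ratio of CMT-U27 and CMT-U309 exceeded that of P114 for 10 member probes at an adjusted p under 0.05 and over 2-fold (4.69% of 213, with 1.5% of all probes) and was lower for 0 (with 0.683% of all). These were probes of HNRNPK, PRPF19, PRPF8, SF3A2, SF3B3, SF3B4 and SNRPA. For HNRNPK and SF3B3 only dimmer probes were called. Their brightest probes gave -0.28 (adjusted p = 0.29 in limma) and 0.35 (adjusted p = 0.35), so the probes of HNRNPK disagreed in sign. For PRPF19, at its brightest probe, P114 had a mean log2 ratio of -1.68 against 0.00118 in the other lines. The latter joins a mean below 0 in CMT-U27 with a mean above 0 in CMT-U309. At the other PRPF19 probe the difference was 0.49 (adjusted p = 0.32 in limma), with -0.81 in P114 and -0.33 in the other lines. For PRPF8, at its dimmer probe, P114 gave -1.39 and -0.83 and the other lines 0.51 to 0.72. At that probe P114 was below 0 and the other lines above 0 on every array, with a difference of 1.73 (SE 0.22, adjusted p = 0.00030 in limma), and its brightest probe gave 0.70 (SE 0.16, adjusted p = 0.016).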

How the data were processed

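RNA of 3 lines in co-culture and monoculture was measured on 6 arrays (12 channels). The authors deposited scanner output of Agilent Feature Extraction (10.10.1.1 per the file headers, 10.7.3.1 in the submitters' processing notes) with processed signal intensity per dye, background-subtracted and dye-normalized, and other values, the deposited flags for control, outlier, saturated and well-above-background spots. The deposited series table holds log10 ratios, which equal those of the scanner output turned to co-culture over monoculture. Very low deposited signals are surrogate values, in 5.87% to 27.5% of spots by channel.

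From these, channels were scaled to a common median, control and outlier spots left out, probes whose highest intensity was at most 10 removed, spots of a probe averaged, and log2 ratios and levels computed. Where an outlier spot left a line with 1 array, that array stood for the line. Limma 3.58.1 in R 4.3.3 (lmFit, eBayes with a trend) tested the mean ratio of 3 lines against 0, with the dye-swap as 1 replicate, and the line differences on 6 RNA samples with culture as covariate. Adjustment was by Benjamini-Hochberg over 40873 probes. The fits were tested on simulated data. Bounds use loess and Aquantile. The number of arrays limits the precision.

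A gene is represented by its brightest probe. Named for co-culture were the 5 genes with the largest mean ratio in each direction among brightest probes well above background in every channel, and up to 5 probes in each direction past the methods' thresholds. Named between lines were the 3 genes with the largest called difference in each direction of each pair whose probe was well above background in the 4 channels of the higher line, plus a list named whatever its values. Genes named beyond this rule were chosen after their values were seen, and so were the test of P114 against the other lines and the check of base composition. Members and lists were chosen with earlier results of these data known. Of 105 symbols, 100 were found in the RefSeq table of dog genes. Replicate numbers mark the dye orientation. Alternatives covered background correction, scaling, filters, the moderation, the t-test, the dye as a replicate block, outlier spots, left-out lines and arrays, and the median over probes. Plots were drawn with matplotlib from the tables.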

Additional observations from a re-analysis of the deposited data

Results flagged for a closer look

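The following named genes had co-culture ratios that differed between lines. In the limma fit of the 6 arrays, where the spread is technical, the mean log2 ratio of CMT-U27 and CMT-U309 exceeded that of P114 by 2.64 (adjusted p = 0.0013) and 2.03 (adjusted p = 0.0024) at the SF3B4 probes, by 1.68 at PRPF19 (adjusted p = 0.00025) and by 1.35 at SNRPA (adjusted p = 0.0026). The difference was 0.86 for HNRNPL (adjusted p = 0.012), 0.81 for SF1 (adjusted p = 0.0092), 0.73 for RBM20 (adjusted p = 0.0078) and 0.70 for PRPF8 (adjusted p = 0.016). SF1 had opposite signs on the arrays of the dye-swap in P114 and in CMT-U309. In the same limma fit the other PRPF19 probe gave 0.49 (adjusted p = 0.32). The other RBM20 probe gave -1.09 (adjusted p = 0.33), the opposite sign to its brightest.

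For 5 other genes both arrays of a line lay above 0 and both arrays of another line below 0, and the difference between those lines was not tested. The largest minus the smallest line ratio was 0.55 for HNRNPA2B1, above 0 in P114 and below 0 in CMT-U27 and CMT-U309, 0.67 for SRSF3 and 0.40 for HNRNPK, both above 0 in P114 and below 0 in CMT-U27, 0.33 for SF3B1, above 0 in CMT-U309 and below 0 in CMT-U27, and 0.75 for PTBP1, above 0 in CMT-U309 and below 0 in P114. These values are from the brightest probes. A dimmer HNRNPK probe ran the other way, at -0.78 in P114 and 0.45 as the mean of CMT-U27 and CMT-U309. With 2 arrays a line, no array was examined as an outlier within its line.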

How the results depend on the processing

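The choice of scaling and background correction set the counts between lines. For CMT-U27 minus P114 the 28 higher and 5 lower member probes became 6 and 3 with normexp, loess and Aquantile, 17 higher with quantile normalization and 74 higher without scaling. For CMT-U309 minus P114 the 5 higher and 10 lower became 3 and 2 with normexp, loess and Aquantile, and 26 and 1 without scaling. For CMT-U309 minus CMT-U27 the 66 lower became 15, 30 and 23 under normexp, quantile normalization and no scaling, with 9 higher in the last. The share of higher among called members moved from 84.8% to 66.7% and 94.9%, from 33.3% to 60.0% and 96.3%, and from 7.04% to 21.1% and 28.1% in these contrasts (normexp, then no scaling). The median over all probes of CMT-U309 minus P114 moved from -0.15 to 0.63 without scaling. With each array left out, CMT-U27 minus P114 had 26 to 34 higher and 5 to 6 lower, CMT-U309 minus P114 5 to 6 and 10 to 18, and CMT-U309 minus CMT-U27 3 to 5 and 63 to 71.

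In co-culture, the single probe past the methods' thresholds (SF3B4) was lost (0 higher) with normexp and loess, without scaling, with the log10 ratios as deposited, under the methods' t-test, with eBayes lacking a trend, and over probes with signal in 6 channels of a culture. With each array or line left out, probes higher ranged from 0 to 4 and lower from 0 to 1, and those past an adjusted p from 0 to 56 (without P114). SRSF1 turned to -0.10 with the median over its probes. Of 399 other values of named genes in co-culture, 382 stayed on their side of the thresholds, counting 12 that changed sign with no call. All named probes but that of SF3B4 began short of these thresholds, so staying mostly meant not being called either time. Of 272 values between lines, 256 stayed and 0 changed sign. Those from 1 culture alone had no test and were compared by sign only. Replicate numbers mark the dye, and the fit of 6 arrays with the replicate block gave 1 probe higher, 0 lower and 0 past an adjusted p, as did the 6 arrays without it. With 12 channels and the replicate block the line counts were 29 and 5, 5 and 10, and 5 and 66. The cause of these changes was not tested.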

Other observations

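RBM8A, SF3B4 and PRPF3 lie within 61 to 63 Mb on chromosome 17 of canFam2, and all were lower in CMT-U309 than in CMT-U27. RBM8A, a core protein of the exon junction complex, had log2 levels of 11.16 in CMT-U309 and 13.16 in CMT-U27 (SE of the difference 0.14, adjusted p = 1.6e-06 in limma). Over 111 other probes in that window the median log2 difference was -1.03 for CMT-U309 minus CMT-U27 and 0.77 for CMT-U27 minus P114, against -0.33 and 0.14 over 1170 probes of the rest of the chromosome. The window was chosen after the values were seen.

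Probes of one gene could differ in their mean log2 ratio of co-culture. The means of RBM20 were 0.39 and -0.46, those of HNRNPUL1 ran from -0.18 to 0.40 over 6 probes, and those of RBM15 from -0.35 to 0.18 over 4 probes. For HNRNPU, 6 probes gave log2 differences of CMT-U309 minus CMT-U27 between -1.14 and -0.62.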
